A study of Mus musculus with 135 samples.

Results

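The neurotrophin system was described here by 7 genes, which are 7 of the 55416 genes in each of the deposited count tables of the cortex and the hippocampus. They were chosen by symbol. Bdnf and Ntf3 encode the neurotrophins BDNF and neurotrophin 3, Ntrk2 and Ntrk3 their receptors TrkB and TrkC, and Ngfr the shared receptor p75. Nrn1 encodes neuritin, a membrane-anchored protein that promotes neurite growth, and Vgf a peptide precursor stored in dense core vesicles. Both are known as genes that BDNF signalling induces.

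Neurotrophins are secreted as precursors that proteases cleave. The mature forms signal mainly through Trk receptor tyrosine kinases and support survival, dendrite growth and synaptic plasticity, while the precursors bind p75 together with sortilin family proteins. In the adult forebrain Bdnf is transcribed by excitatory neurons in response to activity, TrkB is found on neurons and, as a form without the kinase, on astrocytes, and p75 marks the cholinergic neurons of the basal forebrain.

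The mice were male Townes mice, in which human globin genes replace the mouse ones: SS mice carry the sickle form and AA mice, the controls, the normal adult form, so both genotypes carry human globin. RSD (repeated social defeat) placed a male aggressor in the home cage for 2 hours a day on 6 days, and minocycline, a tetracycline antibiotic that dampens microglial activation, was given in drinking water at 90 mg/kg from the day before RSD. Mice of the first RSD experiment were 6 months old. Brains were taken after behavioral testing, so each mouse gives a single time point after the last defeat. Cortex libraries were used from 12 AA, 2 AA + RSD, 18 AA + RSD + minocycline, 1 AA + minocycline, 8 SS, 6 SS + RSD, 14 SS + RSD + minocycline and 4 SS + minocycline mice. The hippocampus had the same numbers except 11 AA and 7 SS mice.

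Depth was 16295042 to 107713193 reads assigned to genes in the cortex libraries and 12869149 to 68731008 in those of the hippocampus. The summed CPM of 4 cortical neuron markers (Rorb, Cux2, Tbr1 and Lamp5) was 232.7 to 660.8 in the cortex and 97.88 to 340.5 in the hippocampus, and that of 4 hippocampal markers (Prox1, C1ql2, Fibcd1 and Pou3f1) was 33.29 to 93.61 and 236.2 to 489.6. Both libraries of AA + RSD mouse 9674 went against their tissue label (hippocampal markers 336.3 CPM in the library labelled cortex and 61.62 CPM in the other) and were left out, as were libraries with identical counts under different group labels. In 4 used mice the labels went against genotype-linked transcripts: AA mouse 9631 held mouse globin reads, AA mice 5844 and 5853 had Alas2 counts in the range of SS mice, and SS mouse 7078 in that of AA mice. The results that change without them are given in the closing section. The study describes a first cohort without minocycline and a second cohort that was randomized to minocycline or plain water. The mouse numbers fall into runs, called number series A, B and C here. What the runs stand for, and which cohort each mouse belongs to, is not stated. All mice with RSD alone are of series A, and all mice with RSD and minocycline are of series B or C, so in that comparison drug and number series cannot be told apart. Between untreated mice of series B and A, with genotype as a term, 42.8% of the genes tested in the cortex and 44.3% in the hippocampus were called (adjusted p under 0.05, by Benjamini and Hochberg).

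Levels are given as CPM, a gene's reads per 1000000 reads on genes in that library, and between genes only per kilobase of exon. Differences are log2 fold changes from edgeR's quasi-likelihood test with their standard error (SE), with p-values adjusted over all genes tested. All 7 genes passed the filter on low counts in every comparison. In bulk tissue, fewer cells that express a gene and less RNA per cell cannot be told apart.

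Per kilobase of exon, Nrn1 and Vgf stood highest of the 7 genes in the cortex, with medians of 73.07 and 71.07 CPM per kb over 65 libraries. Their ranges overlapped widely (39.79 to 107.4 and 22.39 to 102.4). Ntrk2 followed at 23.29, Ntrk3 at 5.779 and Bdnf at 3.142 CPM per kb. Ngfr (0.5075) and Ntf3 (0.4979) lay lowest, with overlapping ranges. The full order Nrn1, Vgf, Ntrk2, Ntrk3, Bdnf, Ngfr, Ntf3 was seen in 20 of 65 cortex libraries. In the hippocampus the medians over 63 libraries were 70.92 for Nrn1, 45.67 for Vgf, 20.84 for Ntrk2, 6.891 for Ntrk3, 5.198 for Bdnf, 3.803 for Ntf3 and 0.6959 CPM per kb for Ngfr. This order was seen in 41 of 63 libraries. On this scale Ntf3, near the bottom in the cortex, thus stood close to Bdnf in the hippocampus. The length of a gene counts every annotated exon of all its transcripts together. It was 29922 bases for Ntrk2 and 31340 for Ntrk3, against 2737 for Nrn1 and 2973 for Vgf. The order depends on these lengths. Without them the cortical median was 697 CPM for Ntrk2, 200 for Nrn1 and 211.3 for Vgf.

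On GRCm39, with the GENCODE M39 annotation, Bdnf (ENSMUSG00000048482.15) lies at chr2:109505045-109557475 on the plus strand. Its deposited count sums the transcripts from all its start sites. Most of them have their own untranslated first exon spliced to a shared coding exon. The RefSeq promoter table (GRCm38.p6) lists 7 Bdnf start sites, 1 Ntrk2, 2 Ntf3 and 1 Ngfr start site, while Ntrk3, Nrn1 and Vgf were not analysed there. The letters ACGTCA, the core of a cAMP response element, the motif read by CREB family factors, were searched on both strands (TGACGT on the other) in the 250 bases before each start. They occurred before 1 of the 7 Bdnf start sites, before none of the 4 of the other genes, and before 6.5% of the 32851 start sites in the table. The Bdnf start site that holds it is shown because Crem, a gene of this factor family, had the cortical pattern most like Bdnf (given further on). The 100 bases before it, at chr2:109692336-109692435 on the plus strand of GRCm38.p6, are given with the motif in capitals, its first base 36 bases before the start.
Bdnf: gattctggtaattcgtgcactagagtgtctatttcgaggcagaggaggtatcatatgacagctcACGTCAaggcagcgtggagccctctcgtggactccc
The match is a description of these letters only, and the counts do not tell which start site was used.

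The widest called difference among the 7 genes lay between the tissues. In untreated AA mice, 4 genes were higher and 2 lower in the hippocampus than in the cortex (37.1% of all genes tested were called, 19.6% higher and 17.5% lower), and in untreated SS mice 2 were higher and 2 lower (29.4% called, 14.7% in each direction). The members' share was therefore set against a background in which a large part of all genes differed. These counts come from fits that did not use the pairing of both tissues within a mouse. With the mouse as a block, Nrn1 was also called in both genotypes and Ntrk3 in SS mice.

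Ntf3, the ligand of TrkC, showed the widest gap. In AA mice its level was 0.3391 CPM at the lowest, 0.8504 at the median and 1.125 at the highest in the cortex, and 3.89, 6.606 and 12.28 CPM in the hippocampus. In SS mice it was 0.4736 to 0.7754 CPM (median 0.5956) in the cortex and 5.084 to 9.473 CPM (median 6.86) in the hippocampus. The tissues did not overlap in either genotype. The log2 difference was 3.18 ± 0.20 (SE, adjusted p = 1.896e-12, edgeR) in AA mice and 3.50 ± 0.19 (adjusted p = 3.634e-10) in SS mice. Over all 63 mice with both tissues, hippocampal Ntf3 was higher in 63, with a median ratio of 8.464 and a range of 1.102 to 18.26. Cortical counts of Ntf3 were as low as 9 reads, which limits the precision of single libraries there.

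Bdnf, the ligand of TrkB, was also higher in the hippocampus, by a much smaller margin. In AA mice it was 22.6 to 38.97 CPM (median 30.34) in the cortex and 31.67 to 50.24 CPM (median 37.53) in the hippocampus, so the ranges overlapped. The log2 difference was 0.36 ± 0.10 (adjusted p = 0.006293, edgeR). In SS mice it was 0.31 ± 0.14 and did not pass (adjusted p = 0.1057). Within single mice hippocampal Bdnf was above cortical Bdnf in 62 of 63, with a median ratio of 1.685.

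The receptors differed from each other. Ntrk2 was lower in the hippocampus, at 605.6 to 696.2 CPM (median 663.4) against 681.6 to 845.5 CPM (median 761.2) in the cortex of AA mice. The log2 difference was −0.24 ± 0.05 (adjusted p = 0.0001624, edgeR) in AA and −0.26 ± 0.07 (adjusted p = 0.008397) in SS mice. Ngfr was higher in the hippocampus by 0.72 ± 0.17 (adjusted p = 0.001346) and 0.95 ± 0.20 (adjusted p = 0.001054) on the log2 scale. Ntrk3 was called in AA mice only narrowly, at 0.26 ± 0.10 (adjusted p = 0.04584, edgeR; with RLE scaling adjusted p = 0.05257). In SS mice it was 0.23 ± 0.14 (adjusted p = 0.2783), and with the mouse as a block, since both tissues come from the same animal, 0.26 (adjusted p = 0.01281). Whether the genotypes differ in these gaps was not tested.

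Vgf was the member with a clear cortical excess. Its level in AA mice was 178.8 to 304.4 CPM (median 228.4) in the cortex and 109.8 to 167.7 CPM (median 148.7) in the hippocampus, without overlap. The log2 difference was −0.71 ± 0.09 (adjusted p = 7.069e-07, edgeR) in AA mice and −0.87 ± 0.11 (adjusted p = 1.186e-05) in SS mice. Nrn1 differed little. Its log2 difference was −0.14 ± 0.10 in AA mice (adjusted p = 0.3065) and −0.19 ± 0.10 in SS mice (adjusted p = 0.19), and it passed the test only with the mouse as a block (−0.15, adjusted p = 0.03997, and −0.21, adjusted p = 0.02606).

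**Figure D1:**
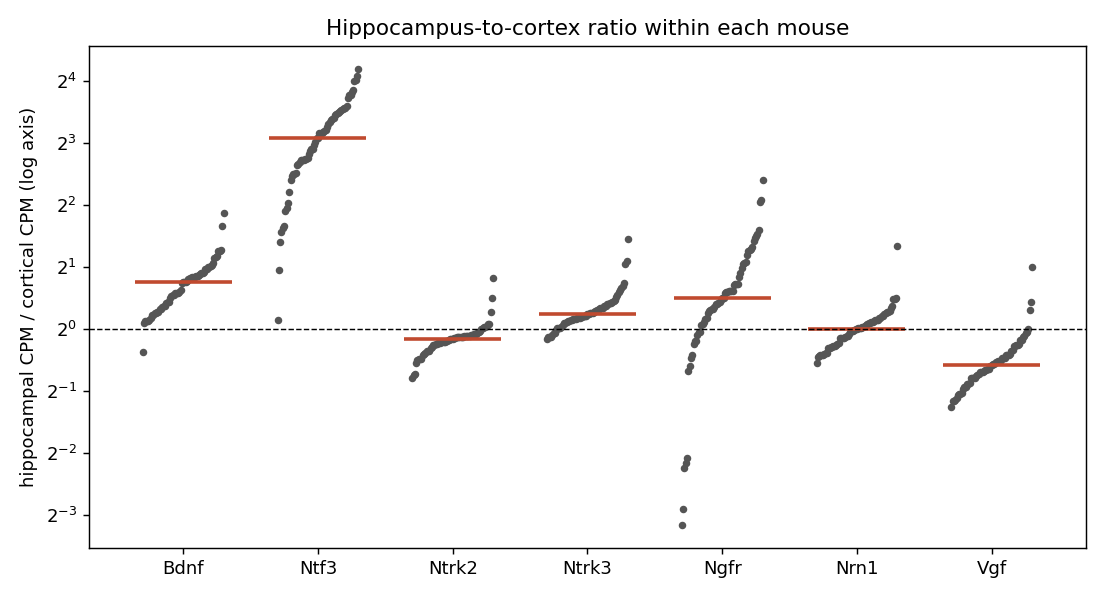
Ratio of hippocampal to cortical CPM for each of the 7 genes (log axis) in the 63 mice with both tissues, sorted within each gene, with the median as a red line and equality as a dashed line. Ntf3 lies above equality in all 63 mice (median 8.464), and Vgf lies below it in all but 4 (median 0.6694).

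The direction of Bdnf stood opposite to that of other activity-regulated genes. Of 14 such genes (immediate early genes such as Fos, Egr1 and Arc, and Nptx2 and Homer1), 12 were lower and 0 higher in the hippocampus of AA mice, and 13 lower and 0 higher in SS mice. The median of the list was −1.17 and −1.36 on the log2 scale, against 0.02 over all genes tested in both genotypes. Egr2 fell by 2.06 ± 0.29 (SE) on the log2 scale in AA mice (adjusted p = 1.978e-06, edgeR) and Egr1 by 1.60 ± 0.11 (adjusted p = 1.389e-11). Among the sortilin family receptors, Sorcs2 was higher by 0.48 ± 0.07 (adjusted p = 3.025e-06) and Sorcs1 was lower at −1.62 ± 0.11 (adjusted p = 6.016e-12), both in AA mice. Among 12 tested processing enzymes and inhibitors, 4 were higher and 4 lower in each genotype, with Pcsk1, a prohormone convertase, at −1.30 ± 0.14 in AA mice (adjusted p = 4.788e-08).

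The comparison of SS + RSD + minocycline with SS + RSD mice asks whether the drug moves the stressed sickle mice. In the cortex, 1 of the 7 genes passed the test, Bdnf, which was lower, against 8.85% of all genes tested (2.47% called lower). Bdnf was 31 CPM at the lowest, 32.35 at the median and 39.29 at the highest in the 6 SS + RSD mice. In the 14 SS + RSD + minocycline mice it was 14.18, 20.37 and 27.58 CPM, so every treated mouse lay below every mouse with RSD alone. The means were 33.49 ± 3.094 (SD, n = 6) and 20.78 ± 3.997 CPM (SD, n = 14). Bdnf fell by 0.80 ± 0.13 (SE) on the log2 scale, a fold of 0.5733 (adjusted p = 0.003323, edgeR). DESeq2 called it too.

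This change rests on mice of different number series. With the series as a term the Bdnf difference was −0.49 ± 0.27 (adjusted p = 1, edgeR) and no gene of the whole table was called in this comparison. That model links series A and B only through the untreated SS mice, 2 of series A and 6 of series B, so its estimate rests on few mice. With the share of reads outside genes as a term the Bdnf difference was −0.62 ± 0.14 (adjusted p = 0.08608). The untreated mice gave a log2 difference of series B minus A of −0.28 ± 0.12 for cortical Bdnf (adjusted p = 0.07018). In a comparison added after these values were seen, RSD with minocycline was set against untreated mice within series B. Series B was itself not uniform. Cortex libraries of SS + RSD + minocycline mice 9895, 5875, 5801 and 9890 had 4.874% to 6.087% of reads outside genes. The 6 untreated SS mice of series B had 8.631% to 11.04%, and this share was not a term in these fits. Cortical Bdnf was 14.18 to 27.58 CPM (median 20.57) in 12 SS + RSD + minocycline and 21.32 to 44.26 CPM (median 29.39) in 6 SS mice, which overlap, and the log2 difference was −0.48 ± 0.16 (adjusted p = 0.6223). In AA mice it was −0.32 ± 0.13 (adjusted p = 0.591) between 15 treated (median 22.37 CPM) and 8 untreated mice (median 29.79 CPM). Of all genes, 0.0% passed in the SS comparison and 0.238% in the AA comparison. Hippocampal Bdnf in the same comparisons was 0.19 (adjusted p = 0.6989) in SS and 0.22 (adjusted p = 0.316) in AA mice, against 0.0% and 0.14% of all genes.

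Cortical Bdnf in the remaining groups can be read beside these values. It was 21.01, 21.89, 22.84 and 24.08 CPM in the 4 SS + minocycline mice, which had no RSD, and 24.57 CPM in the single AA + minocycline mouse. The SS + minocycline values all lay within the range of the 8 SS mice (21.32 to 44.26 CPM, median 30.24) except the lowest, and the log2 difference was −0.36 ± 0.17 (adjusted p = 0.7023, edgeR). Of the 7 genes 0 passed in the cortex (0.0% of all genes, 0 by DESeq2), with 2 at an unadjusted p under 0.05, which were Bdnf and Ntf3. Cortical Ntf3 was 0.6874, 0.865, 1.197 and 1.968 CPM in the SS + minocycline mice and at most 0.7754 in SS mice, and the log2 difference was 1.01 ± 0.45 (adjusted p = 0.6798). The other 5 genes lay between −0.20 (Vgf) and 0.51 (Ngfr). In the hippocampus 0 of 7 genes passed in this comparison too (0.0% of all genes, 0 at an unadjusted p under 0.05, edgeR, and 0 by DESeq2), with Bdnf at 30.8, 31.98, 43.55 and 45.49 CPM and log2 differences from −0.15 (Ntrk3) to 0.37 (Ntf3). The 2 AA + RSD mice had 27.06 and 31.36 CPM, and the 18 AA + RSD + minocycline mice 13.41 to 35.58 CPM (median 22.01), with a log2 difference that did not pass (−0.42, adjusted p = 0.38, 0.0% of all genes called).

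Hippocampal Bdnf did not follow. It was 36.55 to 48.77 CPM (median 40.9) in SS + RSD and 29.64 to 66.99 CPM (median 36.9) in SS + RSD + minocycline mice. The latter range covered the former, and the log2 difference was −0.13 ± 0.16 (adjusted p = 0.6112, edgeR). In a model of both tissues with the mouse as a block, also added after seeing the data, the hippocampal minus the cortical difference of Bdnf was 0.61 ± 0.15 in 6 and 14 mice (adjusted p = 1, unadjusted p = 0.0006306), and 0.0% of all genes passed. The contrast between the tissues therefore did not pass the test.

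**Figure D2:**
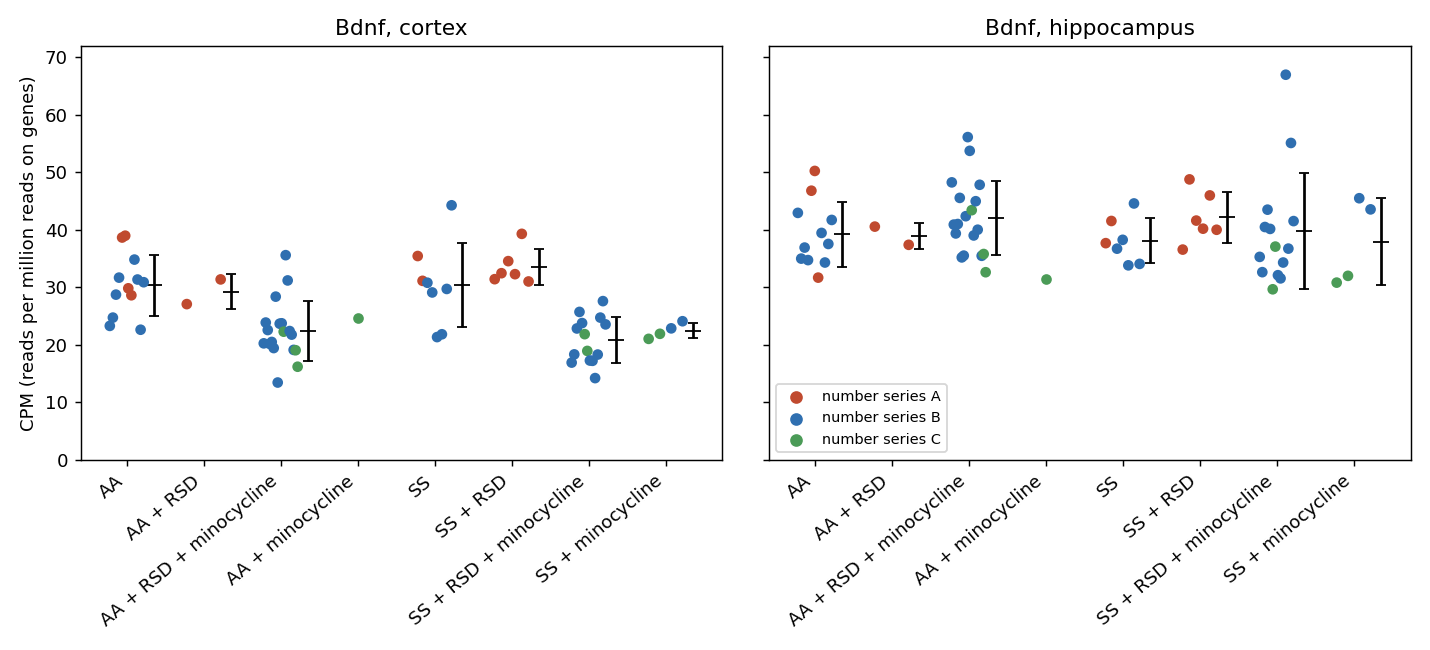
Bdnf in CPM in each library by group, cortex on the left and hippocampus on the right, coloured by the number series of the mouse, with black marks for the mean and SD of groups of 2 or more. In the cortex the SS + RSD mice, all of series A, lie between 31 and 39.29 CPM and the SS + RSD + minocycline mice between 14.18 and 27.58 CPM, while the hippocampal groups overlap.

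None of the other members passed in the cortex. Vgf was 150.9 to 297.1 CPM (median 254.8) in SS + RSD and 116.6 to 288.3 CPM (median 191.8) in SS + RSD + minocycline mice, and the log2 difference was −0.45 ± 0.16 (adjusted p = 0.06955, edgeR). Without SS + RSD mouse 9621, which had the 150.9, it passed at −0.56 (adjusted p = 0.03506). The library of mouse 9621 is among those with the highest Ngfr, described further on. Those of SS + RSD + minocycline mice 5801, 9812, 9813 and 9890 are too, and they stayed in this fit. Ntrk2 (−0.30 ± 0.11, adjusted p = 0.07206) and Nrn1 (−0.40 ± 0.17, adjusted p = 0.1235) did not pass, nor did Ntrk3 (0.22 ± 0.20, adjusted p = 0.4862) and Ntf3 (0.11 ± 0.36, adjusted p = 0.8633). Ngfr, at 0.87, is described further on. The median over the 7 genes was −0.30, and that over all genes −0.05. Of the 65 tested genes on the lists of pathway genes, 3 were called higher and 8 lower, beside 6.38% and 2.47% of all genes. Among them were 4 of the 14 activity-regulated genes, all lower. These included Nptx2, a synaptic pentraxin, at −0.98 ± 0.18 (adjusted p = 0.006899), Egr3 at −0.91 ± 0.17 (adjusted p = 0.007705) and Homer1, a synaptic scaffold protein gene, at −0.82 ± 0.20 (adjusted p = 0.01502). The confounding with number series applies to each of them.

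In the hippocampus Ntrk2 was the gene called of the 7 and was lower, against 5.96% of all genes (4.88% called higher and 1.08% lower). It was 572.8 to 793.3 CPM (median 681.8) in SS + RSD and 489.9 to 670 CPM (median 615.9) in SS + RSD + minocycline mice, with overlapping ranges. The log2 difference was −0.22 ± 0.06 (adjusted p = 0.03822, edgeR). The other 6 genes lay between −0.29 (Ngfr) and 0.13 (Ntrk3). The call was lost with RLE scaling (adjusted p = 0.05137), with the number series as a term (−0.18, adjusted p = 0.5427), and without any 1 of 5 of the 6 SS + RSD mice (5354, 5391, 9615, 9616 and 9621, adjusted p from 0.05172 to 0.09523).

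For RSD itself, in SS + RSD against SS mice, 0 of the 7 genes passed in either tissue (2.57% of all genes called in the cortex and 3.11% in the hippocampus, edgeR). All 6 SS + RSD mice are of series A and 6 of the 8 SS mice with a cortex library are of series B, so this comparison too is mixed with the number series. With the series as a term, the genes called in the cortex went from 511 to 0, and they were also 0 without SS + RSD mouse 5391, 9615, 9616 or 9621 and 2 without mouse 5354. In the hippocampus they went from 643 to 0 with the series as a term and to 0 without any 1 of these 5 mice. Of the 7 genes, 1 in each tissue had an unadjusted p under 0.05. In the cortex this was Ntf3, at 0.4736 to 0.7754 CPM (median 0.5956) in SS and 0.7352 to 1.734 CPM (median 1.115) in SS + RSD mice, with a log2 difference of 1.02 ± 0.41 (adjusted p = 0.1117). A model of only these groups called it (0.97, adjusted p = 0.0147), where 19.2% of all genes were called. With the number series as a term Ntf3 was at 0.75 ± 0.65 (adjusted p = 1), and in untreated mice it was itself lower in series B than in A (−0.48 ± 0.18). In the hippocampus the gene with an unadjusted p under 0.05 was Ntrk2, at 503.2 to 681.8 CPM (median 627.7) in SS and 572.8 to 793.3 CPM (median 681.8) in SS + RSD mice (0.23 ± 0.07, adjusted p = 0.06734), which DESeq2 called at 0.22 (adjusted p = 0.0475). With the series as a term Ntrk2 was at 0.21 ± 0.11 (adjusted p = 0.7725). Cortical Bdnf was 0.26 ± 0.15 higher on the log2 scale and hippocampal Bdnf 0.25 ± 0.18, neither of which passed (adjusted p = 0.2584 and 0.4623). The members' log2 differences ran from −0.28 (Ntrk3) to 1.02 (Ntf3) in the cortex and from −0.14 (Ntrk3) to 0.29 (Nrn1) in the hippocampus. The SS + RSD mice also serve as the reference of the minocycline comparison, so the comparisons share them.

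**Figure D3:**
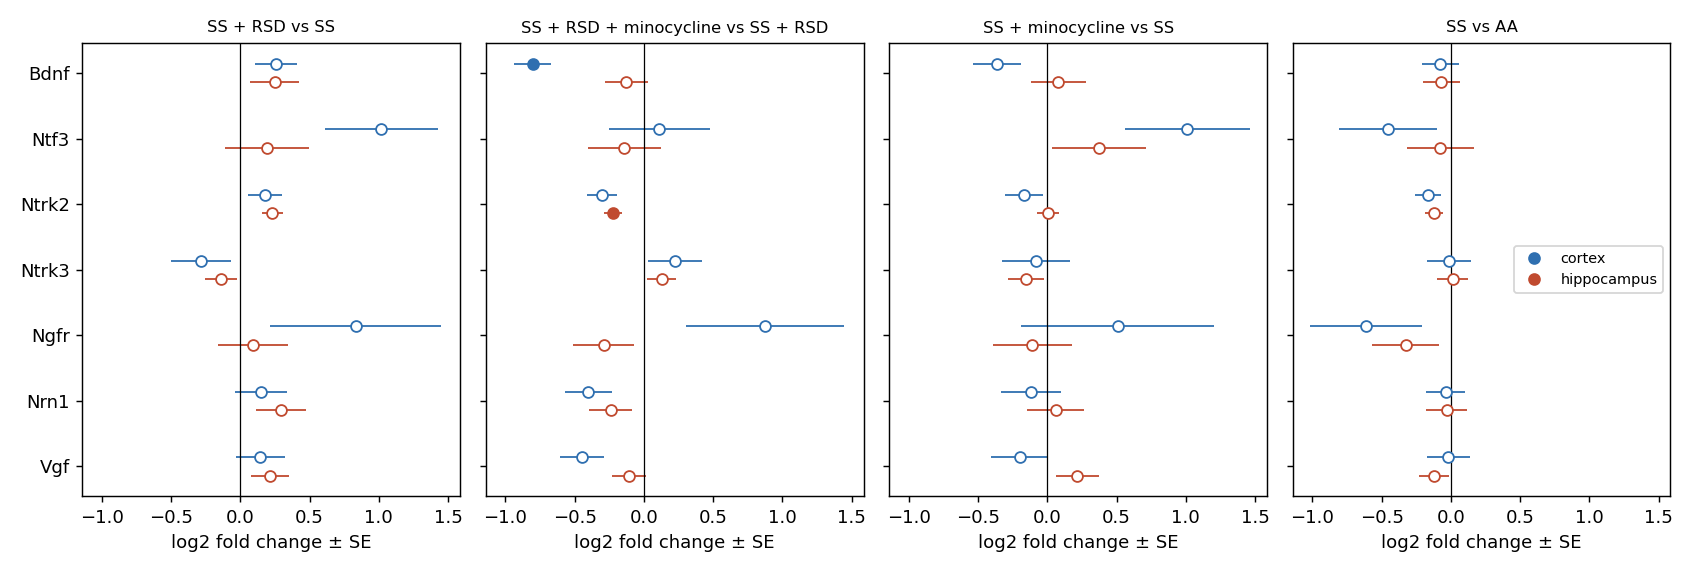
Log2 fold changes with SE for the 7 genes in 4 comparisons, cortex in blue and hippocampus in red, with filled points for an adjusted p under 0.05. The filled points are cortical Bdnf (−0.80) and hippocampal Ntrk2 (−0.22) in SS + RSD + minocycline against SS + RSD mice.

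Genotype made no called difference in the 7 genes. In SS against AA mice 0 of 7 passed in the cortex (0.206% of all genes called, edgeR) and 0 of 7 in the hippocampus (0.158%), with 0 at an unadjusted p under 0.05 in both tissues and 0 called by DESeq2. Cortical Bdnf was 30.44 ± 7.33 CPM (SD, n = 8) in SS and 30.33 ± 5.34 CPM (SD, n = 12) in AA mice, a log2 difference of −0.08 ± 0.13. The 7 genes lay between −0.61 (Ngfr) and −0.01 (Ntrk3) in the cortex and between −0.32 (Ngfr) and 0.01 (Ntrk3) in the hippocampus. The counts were also 0 of 7 for SS + RSD against AA + RSD mice (0.0% in the cortex, 0.0171% in the hippocampus), for SS + RSD + minocycline against AA + RSD + minocycline mice (0.599% and 2.73%) and for the interaction of genotype and RSD (0.0% and 0.0128%), the last with only 2 AA + RSD mice. In AA + RSD against AA mice (0.0% and 0.0419%) and in SS + RSD + minocycline against SS + minocycline mice (0.0% in both) no member passed either. In AA + RSD + minocycline against AA + RSD mice, 0 of 7 passed in the hippocampus (0.0419%). In these comparisons the members with an unadjusted p under 0.05 were at most 2 of 7, and DESeq2 called 0. The widest log2 differences among them were those of Ngfr (1.20 ± 0.69, adjusted p = 0.9794) in cortical SS + RSD + minocycline against SS + minocycline mice and of Ntf3 (1.27 ± 0.74, adjusted p = 1) in the cortical interaction.

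Ngfr had the widest spread of the 7 genes in the cortex, from 0.7673 to 16.91 CPM with a coefficient of variation of 104.9% over 65 libraries. In SS + RSD + minocycline mice it ran from 1.048 to 16.91 CPM with a median of 1.662, and in SS + RSD mice from 0.8664 to 6.844 CPM with a median of 1.214. The log2 difference of 0.87 ± 0.57 did not pass (adjusted p = 0.3342, edgeR). In SS + RSD + minocycline against AA + RSD + minocycline mice it was 0.91 ± 0.30 (adjusted p = 0.2171).

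The highest Ngfr values came from 5 cortex libraries, those of SS + RSD mouse 9621 and of SS + RSD + minocycline mice 5801, 9812, 9813 and 9890, at 6.844 to 16.91 CPM against 0.7673 to 4.063 CPM in the other 60. The same 5 held 6.013 to 9.356 CPM of Chat, the acetylcholine-synthesizing enzyme, against 0.05565 to 1.865 CPM in the others. They also held 3.373 to 8.08 CPM of Lhx8, a transcription factor of basal forebrain cholinergic neurons, against 0 to 1.016. Chat and Lhx8 were chosen after the values were seen. In 4 of the 5, cortical neuron markers summed to 232.7 to 263.7 CPM, at the low end of the cortex libraries, and in the library of mouse 9812 to 475.5.

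Without these 5 libraries, an alternative also added after seeing the data, the Ngfr difference of SS + RSD + minocycline from SS + RSD mice was 0.17 ± 0.23 (adjusted p = 0.6764, edgeR). That of the SS from the AA mice given RSD with minocycline turned from 0.91 to −0.59 ± 0.16 (adjusted p = 0.1047). The 5 libraries hold the highest Ngfr values, and most of them are of SS + RSD + minocycline mice. Lower Ngfr differences were therefore largely set by leaving them out, and these values are no test of Ngfr. The Bdnf difference of SS + RSD + minocycline from SS + RSD mice was −0.75 ± 0.14 and still passed (adjusted p = 0.01852), with 6.56% of all genes called.

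**Figure D4:**
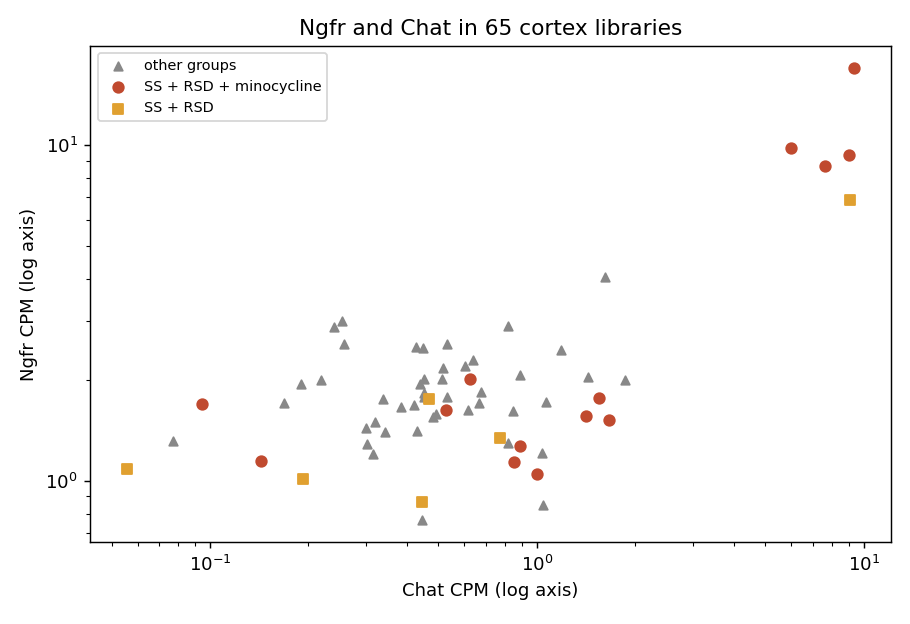
Ngfr against Chat in CPM (both axes logarithmic) in the 65 cortex libraries, with SS + RSD + minocycline mice as red circles, SS + RSD mice as yellow squares and the other groups as grey triangles. The 5 libraries at the upper right have 6.013 to 9.356 CPM of Chat and 6.844 to 16.91 CPM of Ngfr.

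In the hippocampus Ngfr ranged from 1.162 to 7.178 CPM over 63 libraries. Its log2 level had a Pearson r of 0.635 with the summed level of the choroid plexus markers Ttr, Folr1 and Kl, which ranged from 21.72 to 9431 CPM between libraries of the hippocampus. This was the largest r of Ngfr among all the cell type and region marker lists compared there. The next in size was −0.284, for neurons. The part of the choroid plexus markers in the Ngfr differences between tissues was not tested.

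Ntrk3 was the receptor that moved most with the number series. In untreated AA mice its cortical level was 126 to 185.9 CPM (median 128.5) in the 4 mice of series A and 136.3 to 216.2 CPM (median 201.1) in the 8 of series B. In SS mice it was 109.4 and 139 CPM in series A and 167 to 234.2 CPM (median 199.9) in the 6 of series B. The groups overlapped in AA and not in SS mice. With genotype as a term the log2 difference of series B minus A was 0.44 ± 0.10 in the cortex (adjusted p = 0.002276, edgeR) and 0.35 ± 0.09 in the hippocampus (adjusted p = 0.004918).

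Of the 7 genes 4 were called in this comparison in each tissue, against the 42.8% and 44.3% of all genes given above. Ntf3, Nrn1 and Vgf were lower in series B in both tissues. In the hippocampus Ntf3 fell by 0.73 ± 0.15 on the log2 scale (adjusted p = 0.0008952, edgeR), Nrn1 by 0.47 ± 0.09 (adjusted p = 0.0005378) and Vgf by 0.36 ± 0.08 (adjusted p = 0.002424). In the cortex the differences were −0.48 ± 0.18 (adjusted p = 0.03709), −0.27 ± 0.07 (adjusted p = 0.002908) and −0.23 ± 0.09 (adjusted p = 0.04991). Ntrk3 moved the other way from these ligands and BDNF-induced genes. Ntrk2 did not pass (−0.09 ± 0.05 and −0.04 ± 0.06), nor did Ngfr.

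The spread was not only between series A and B. Among SS + minocycline mice cortical Ntrk3 was 117.9 and 71.96 CPM in both mice of series B and 214.5 and 242.9 CPM in both of series C. With mice of series B only, Ntrk3 in SS + minocycline against SS mice was −0.91 on the log2 scale (adjusted p = 0.01791, edgeR), where 27.1% of all genes were called, and −0.08 (adjusted p = 0.9693) with all mice. Hippocampal Ntf3 of the same mice was 13.7 and 10.9 CPM in series B and 4.853 and 4.863 CPM in series C. Untreated SS mice of series B had 167 to 234.2 CPM of cortical Ntrk3 and 5.084 to 7.672 CPM of hippocampal Ntf3. Both SS + minocycline mice of series B thus stood apart from untreated mice of their own series. Their hippocampal libraries had 4.306% and 4.358% of reads outside genes, against 8.12% and 8.159% in series C. In the cortex it was 9.837% and 3.846%, against 10.5% and 8.567%. The part of this share in the spread was not tested.

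**Figure D5:**
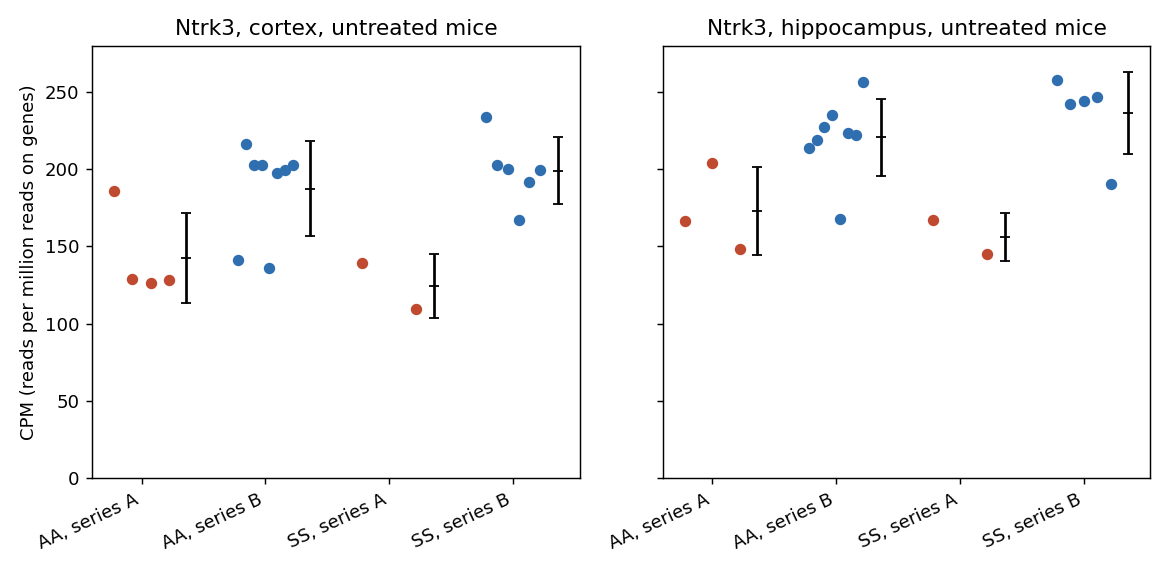
Ntrk3 in CPM in each library of untreated AA and SS mice, split by number series, for the cortex (left) and the hippocampus (right), with black marks for the mean and SD. Series B lies higher, by 0.44 on the log2 scale in the cortex and 0.35 in the hippocampus.

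As a description over all libraries of a tissue, which share depth, number series and dissection, each gene was set beside all others whose log2 CPM averaged 1 or more. In the cortex (n = 65) the patterns most like Bdnf were those of Crem (Pearson r = 0.816) and Nptx2 (0.765), and in the hippocampus (n = 63) those of Nrn1 (0.772) and Chn1 (0.752). Nrn1 was most like Camk2n1 (0.848) in the cortex and Arpc2 (0.926) in the hippocampus. Ntrk2 had Ankrd50 among its most alike genes in both tissues (0.861 and 0.858), Ntrk3 was most like Nsd3 (0.941) and Sorbs2 (0.949), and Vgf like Fscn1 (0.88) and Mypop (0.783). Ntf3 was most like Lypd1 (0.83) in the cortex and Ppp1r1a was second to 2810025M15Rik (0.909 and 0.916) in the hippocampus. Ngfr was most like AW551984 (0.776) and Slc4a2 (0.732).

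Among the members, Bdnf and Nrn1 moved together in both tissues (r = 0.629 in the cortex and 0.772 in the hippocampus). Ntf3 and Nrn1 did so in the hippocampus (0.836) and not in the cortex (−0.135). Ntf3 and its receptor gene Ntrk3 ran in opposite directions in both (−0.46 and −0.716), while Bdnf and its receptor gene Ntrk2 had r = 0.184 in the cortex and −0.383 in the hippocampus.

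The remaining genes lie on GRCm39 at chr13:58954176-59281784 (Ntrk2, plus strand), chr6:126078375-126143873 (Ntf3, minus), chr7:77825707-78387760 (Ntrk3, minus), chr11:95459638-95478561 (Ngfr, minus), chr13:36909335-36919156 (Nrn1, minus) and chr5:137055246-137062205 (Vgf, plus). The strand setting of the counting is not given in the sources used here, and for some genes the exons overlap genes of the other strand. The overlap was 42.7% of the exonic bases of Nrn1 (Fars2, Gm30177 and Gm56572), 13.5% of Bdnf (Gm45346), 12.3% of Ntf3 (Gm67883) and 1.24% of Ntrk3 (Gm9885). Reads of these partners cannot be told apart from those of the members where the counting ignored strand.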

How the data were processed

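Bulk RNA of the cortex and hippocampus of male Townes mice was sequenced from a single end after polyA selection with a directional kit. STAR was used by the authors for alignment to GRCm39, and the raw read counts per GENCODE gene that it gives were deposited as 1 table per tissue. The counts are whole numbers without normalization. The aligner version, annotation release and strand setting are not given in the sources used here. Each table also holds 4 summary lines that name no gene (median 12.4% of all reads unmapped, 4.98% mapped to several places, 8.25% outside genes and 1.25% on several genes for cortex libraries, and 13.3%, 4.83%, 7.59% and 1.22% for hippocampus libraries), which stayed out of library sizes and tests.

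Groups were taken from the labels for 134 libraries. Of these 128 were used, 65 of the cortex and 63 of the hippocampus. Libraries with identical counts under different group labels (mice 9887 and 9877) and both libraries of mouse 9674 were left out. Also unused were 1 library whose labels name different tissues and 3 columns without a match to any labelled library.

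CPM were computed from the deposited counts per 1000000 reads on genes. Genes passing filterByExpr by group (minimum count 10, minimum total count 15) were scaled by TMM and tested with the quasi-likelihood test of edgeR 4.0.16 in R 4.3.3, with Benjamini-Hochberg adjustment over all genes tested and a threshold of 0.05. Comparisons within a genotype used a model of all its groups in a tissue, those between genotypes a model of all groups, and the tissues were compared in untreated AA and SS mice. Same-numbered libraries come from the same mouse. Their deviations from the group means over 13124 genes correlated with r from 0.563 to 0.806 in 11 AA mice and from 0.253 to 0.893 in 7 SS mice. Libraries of different mice were not compared in this way, and the groups mix number series. The values therefore do not show the part of the mouse itself. Because the labels pair the tissues, the mouse served as a block in an alternative. Nothing says that mice were independent beyond their numbers, such as by litter or cage, and p-values measure the spread between mice.

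All 7 genes were to be described in every comparison whatever their values, and where few are named the text gives their range. From each pathway list (69 genes in all) counts are given, with at most 3 called genes of largest change. Some genes and results are not reported here. Of each gene, the 2 genes of highest Pearson r on log2 CPM (prior count 2) are candidates for naming. The genes and lists were chosen with earlier results of these data known. Alternatives were RLE scaling, DESeq2 1.42.0, no filter, a model of only the groups compared, keeping mouse 9674 or the identical libraries, leaving out mice 5844, 5853, 7078 and 9631 (whose globin or Alas2 counts go against their genotype label), the number series or the share of reads outside genes as a term, mice of series A or B only, leaving out single mice, the mouse as a block and TMM-scaled CPM. The comparisons of number series, those within series B, the contrast of the tissues and leaving out cortex libraries over 5 CPM of Chat were added after the data were seen. The fits were tested on simulated data. Promoter sequences are from RefSeq (GRCm38.p6), and exon lengths and overlaps from GENCODE M39 on GRCm39.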

Additional observations from a re-analysis of the deposited data

Results flagged for a closer look

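In groups of 4 to 10 mice each gene's highest or lowest mouse was compared with the rest, which gave 42 combinations of gene and group. By Dixon's criterion 2 mice stood apart, about as many as chance gives at 1 in 20 independent combinations. The combinations share mice and are not independent, so this is a rough guide only. Cortical Ngfr of SS + RSD mouse 9621 was 6.844 CPM, with a gap to the next mouse of 0.852 of the group's range. Its library is 1 of the 5 with high Chat. Cortical Ntrk2 of SS mouse 9903 was 843.4 CPM, with a gap of 0.611 of the range of 8 mice.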

How the results depend on the processing

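The number of the 7 genes called was recomputed 292 times over the comparisons and alternatives and stayed within 1.5 times the reported count in 271. The share of all genes called is given above for some of these alternatives only, and without it a count says little about the members. In the cortex, SS + RSD + minocycline against SS + RSD mice gave 1, 0 with the number series or with the share of reads outside genes as a term, and 1 to 2 when single SS + RSD mice were left out (2 without mouse 9621). SS + RSD against SS mice gave 0, and 1 (Ntf3) in a model of only these groups. With mice of series B only, SS + minocycline against SS mice gave 1 (Ntrk3), beside the share of all genes given above. SS + RSD + minocycline against SS + minocycline mice gave 2 (Ntrk3 and Vgf), and the share of all genes called in that fit is not reported here. Both fits rest on only 2 SS + minocycline mice, so these counts say little about the members. Keeping mouse 9674 under its labels gave 1 for AA + RSD against AA mice, where Ntf3 turned from −0.28 to 2.08 on the log2 scale (adjusted p = 0.03711, edgeR), and 1 (Bdnf) for AA + RSD + minocycline against AA + RSD mice. The cortex library of this mouse carries hippocampal markers.

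In the hippocampus, SS + RSD + minocycline against SS + RSD mice gave 1 (Ntrk2), and 0 under RLE, no filter, only the groups compared, without mice 5844, 5853, 7078 and 9631, the number series as a term or the share of reads outside genes as a term. It gave 0 to 1 when single SS + RSD mice were left out. SS + RSD against SS mice gave 0, 1 (Ntrk2) with DESeq2, and 0 to 1 without single mice (1 without mouse 5400). With the mouse as a replicate block, the tissue comparison called 7 of 7 genes in AA mice and 6 of 7 in SS mice, against 6 and 4 without it. The added calls were Nrn1 in both genotypes and Ntrk3 in SS mice, and no other call changed. The share of all genes called with the block is not reported here. Of 2044 recomputed log2 fold changes 14 lost and 11 gained a call. The sign differed from the reported value in 226, and in 1 of these, Ntf3 with mouse 9674, either value was called. The cause was not tested. With TMM-scaled CPM, 97 of 112 group means moved by less than their SD, and the others include the single AA + minocycline mouse.

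Limits are the 2 AA + RSD and 4 SS + minocycline mice, the number series, and counts of 9 to 136 reads for Ntf3 and 17 to 668 for Ngfr per cortex library.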
